A study of Mus musculus with 211 samples.

Results

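A set of 9 interferon-related genes was followed in single cells sorted from the adult mouse cochlea. They are *Ifitm1*, *Ifitm2*, *Ifitm3* and *Ifitm6*, which code for small membrane proteins of the IFITM family, and *Ifit1*, *Ifit3*, *Isg15*, *Irf7* and *Rsad2*, which are classical interferon-induced genes. The 9 genes were chosen by name and found among the 48709 genes of the expression table by their Ensembl identifiers, and all 9 were present. A group of 93 other genes of the interferon pathway was read beside them.

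The cells came from Lfng-EGFP mice of the CD1 strain, in which the Lfng transgene marks cochlear supporting cells (SCs) with EGFP. Mice were taken at P60 or at P120, that is 60 or 120 days after birth, with no treatment and no mouse without the transgene among the libraries. Sorted GFP-positive cells were captured on the Fluidigm C1, which makes 1 full-length cDNA library per cell. Of the 211 cells in the table, 48.3% came from the 8 captures at P60 and 51.7% from the 4 captures at P120. A capture holds the pooled cochleae of several mice and is the replicate here, so that p-values measure the spread between captures and cells are not counted as replicates. The transgene also marks capillary endothelial cells, and the authors removed cells with endothelial transcripts and outliers before deposit.

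Interferons are secreted proteins that bind paired receptors and act through JAK kinases and the transcription factors that these activate. Type I interferon leads a factor complex that contains IRF9 to a short DNA element, the interferon-stimulated response element, in front of many antiviral genes. *Ifit1* codes for a protein that recognises foreign RNA and *Ifit3* for a protein of the same family. *Isg15* codes for a ubiquitin-like modifier, *Rsad2* for the antiviral enzyme viperin and *Irf7* for a factor that amplifies interferon production. IFITM proteins block the fusion of viral envelopes with cell membranes, and several of them are also expressed at rest in many cell types.

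The median cell had 735206 reads on genes at P60 and 772653 at P120, between 41 and 5361476 in single cells, and the captures summed to between 119240 reads (10c) and 44268475 reads (28). Fewer than 10000 reads were found in 33 cells. All 6 captures of the first sequencing run were P60, while the later runs held captures 31 and 40 at P60 and the 4 captures of P120, so that run and age are partly confounded. The label of cochlear SCs was checked against marker lists, counting a cell where at least 3 genes of a list had 10 or more reads. The list of late neutrophil genes (*Csf3r*, *Cxcr2*, *Il1b*, *Mmp8*, *Mmp9*, *Retnlg* and *Clec4d*) was met by 130 of 211 cells (61.6%) and the list of granulocyte precursor genes (*Elane*, *Mpo*, *Prtn3*, *Ctsg*, *Ms4a3* and *Prss57*) by 42 cells (19.9%). The basophil list was met by 18 cells (8.53%), of which 17 were at P120, and the list of 14 SC genes by 14 cells (6.64%). The lists for plasmacytoid dendritic, endothelial and hair cells were met by 0 cells, which allows a share of up to 1.42%. The data thus go against the label for most cells, and the values below are given for sorted cells and for the marker lists they meet.

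The 4 IFITM genes lie within 63.1 kb of chromosome 7 in GRCm38. *Ifitm2* (ENSMUSG00000060591.9) spans 140954837 to 140955987 on the minus strand, *Ifitm1* (ENSMUSG00000025491.14) spans 140967221 to 140969825 on the plus strand, *Ifitm3* (ENSMUSG00000025492.6) spans 141009586 to 141010770 on the minus strand and *Ifitm6* (ENSMUSG00000059108.4) spans 141015699 to 141017924 on the minus strand. *Irf7* (ENSMUSG00000025498.15), at 141262706 to 141266481 on the minus strand, lies a further 244.8 kb along the same chromosome and overlaps *Phrf1* on the other strand. *Ifit3* (ENSMUSG00000074896.3, 34583531 to 34588731) and *Ifit1* (ENSMUSG00000034459.8, 34640871 to 34650009) are neighbours on the plus strand of chromosome 19, 52.1 kb apart. *Isg15* (ENSMUSG00000035692.6) is on chromosome 4 from 156199424 to 156200818 and *Rsad2* (ENSMUSG00000020641.15) on chromosome 12 from 26442746 to 26456452, both on the minus strand. The libraries were not strand-marked, so reads of *Irf7* and *Phrf1* cannot be told apart where the genes overlap. Of all stretches of 90 bases (the read length) in the main transcript, 37.8% were shared with other genes for *Ifitm2* (31.6% with *Gm45717*), 35.1% for *Ifit3* (with *Ifit3b*) and 4.05% for *Ifit1* (with *Ifit1bl2*). These 3 genes are therefore uncertain where reads could be split or dropped. The other 6 genes shared no such stretch.

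The start sites were examined because the element that interferon acts through is short enough to be read by eye. The core GAAANNGAAA was searched on both strands (TTTCNNTTTC on the other) in the RefSeq promoter windows of GRCm38.p6, from 250 bases before to 50 bases after each start. It was found in 6 of the 9 windows, against 1131 of 32851 windows of the same length over all genes (3.44%). The matched stretches are shown on the strand of each gene, with the matches in capitals, so that the spacing of the copies can be compared.

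*Ifit1*, chr19:34640765-34640833, plus strand: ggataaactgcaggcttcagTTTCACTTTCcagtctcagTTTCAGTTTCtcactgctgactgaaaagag

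*Ifit3*, chr19:34583353-34583436, plus strand: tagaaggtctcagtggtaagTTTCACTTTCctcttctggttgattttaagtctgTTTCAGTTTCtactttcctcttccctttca

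*Isg15*, chr4:156200855-156200916, minus strand: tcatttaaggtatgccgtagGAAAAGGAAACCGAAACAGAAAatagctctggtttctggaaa

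*Rsad2*, chr12:26456543-26456592, minus strand: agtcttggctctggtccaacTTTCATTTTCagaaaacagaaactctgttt

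*Ifitm2*, chr7:140955978-140956027, minus strand: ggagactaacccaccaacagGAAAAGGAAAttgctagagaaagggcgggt

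*Ifitm3*, chr7:141010714-141010743, minus strand: gGAAAAGGAAActtctgaGAAACCGAAAct

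*Ifit1* and *Ifit3* each held 2 copies before the start, at positions -104 and -85 for *Ifit1* and at -156 and -122 for *Ifit3*. *Isg15* held 3 overlapping copies, the first at -78, while *Rsad2* held 1 at -120. Among the IFITM genes, *Ifitm2* held 1 copy at -46 and *Ifitm3* held 2 just after the start, at 2 and 19. The letters were not found in the windows of *Ifitm1*, *Ifitm6* and *Irf7*. A match is a description of the sequence only.

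The 9 genes split into 2 patterns of detection. The IFITM genes had at least 1 read in many cells. *Ifitm3* was read in 124 of 211 cells (58.8%), *Ifitm6* in 119 cells (56.4%), *Ifitm2* in 114 cells (54.03%) and *Ifitm1* in 66 cells (31.3%). The shares varied widely between captures, from 0% to 66.7% for *Ifitm1* and from 0% to 95.7% for *Ifitm6*. The 5 induced genes were rare. *Rsad2* was read in 18 cells (8.53%), *Ifit1* in 16 (7.58%), *Ifit3* in 11 (5.21%), *Irf7* in 9 (4.27%) and *Isg15* in 7 (3.32%). As the cells share 12 captures, no interval is given for these shares, and the limits given for a count of 0 cells cover counting error only.

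The same split was seen per transcript length and at matched depth. As reads per kilobase of the longest coding transcript, scaled to the total reads (RPKM), summed over all cells, *Ifitm6* stood at 622, *Ifitm3* at 441, *Ifitm2* at 173 and *Ifitm1* at 158. *Rsad2* followed at 18.1 RPKM, *Isg15* at 14.02, *Ifit1* at 8.74, *Ifit3* at 3.32 and *Irf7* at 1.06. After thinning each of the 164 cells with at least 50000 reads to that number, 43.9% had a read of *Ifitm2*, 42.7% of *Ifitm3*, 35.4% of *Ifitm6* and 15.9% of *Ifitm1*. The induced genes were then between 0.610% of cells for *Ifit3* and 5.49% for *Rsad2*. At the stricter limit of 10 reads, *Ifitm2* was seen in 73 cells, *Ifitm3* in 71, *Ifitm6* in 56 and *Ifitm1* in 21, while *Rsad2* was seen in 9, *Irf7* in 4, *Ifit1* and *Isg15* in 3 each and *Ifit3* in 2.

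**Figure D1:**
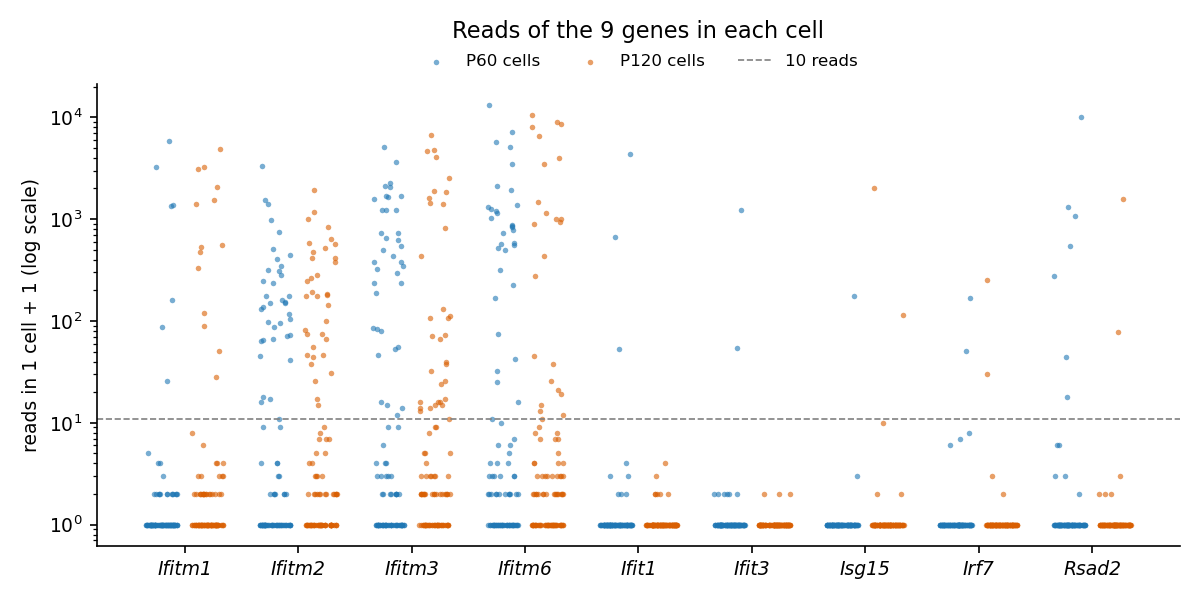
Reads of each gene in each of the 211 cells plus 1, on a log axis, with P60 cells in blue, P120 cells in orange and the dashed line at 10 reads. The IFITM genes fill the range above the line in 21 to 73 cells, while the 5 induced genes have 2 to 9 cells above it.

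Single cells held most reads of the induced genes. *Ifit3* had 1215 of its 1277 reads in 1 cell of capture 31 (95.1%), and *Ifit1* had 4370 of 5110 reads (85.5%) in another cell of that capture. *Isg15* had 2032 of 2334 reads (87.1%) in 1 cell of capture 28. *Rsad2*, which is the most read of the 5, had 10134 of 15081 reads (67.2%) in yet another cell of capture 31. *Irf7* had 252 of 521 reads (48.4%) in 1 cell of capture 32. The IFITM genes were spread more evenly, with 19.2% of *Ifitm1* reads, 13.4% of *Ifitm2*, 11.8% of *Ifitm6* and 10.3% of *Ifitm3* in the highest cell. It took 4 cells to hold 50% of the reads of *Ifitm1*, 6 for *Ifitm6*, 8 for *Ifitm3* and 9 for *Ifitm2*.

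Rare detection and concentration go together in these libraries, so both groups were set beside genes read in as many cells. Over the 5 induced genes, the median share of reads in the 5 highest cells was 99.5%, and over the 4649 genes read in 7 to 18 cells it was 97.2%. For the single highest cell the medians were 85.5% and 53.8%. Over the 4 IFITM genes, the median share of the 5 highest cells was 41.5%, against 51.6% for the 1660 genes read in 66 to 124 cells. Scaled by the depth of each cell (CPM), the median share of the 5 highest cells over all 9 genes was 87.7%, against 77.1% for the 10544 genes read in at least 10 cells. This background is not matched for detection, and *Irf7* and *Isg15* were read in fewer than 10 cells. The 87.7% is the value of *Rsad2*. No test was made of these shares.

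**Figure D2:**
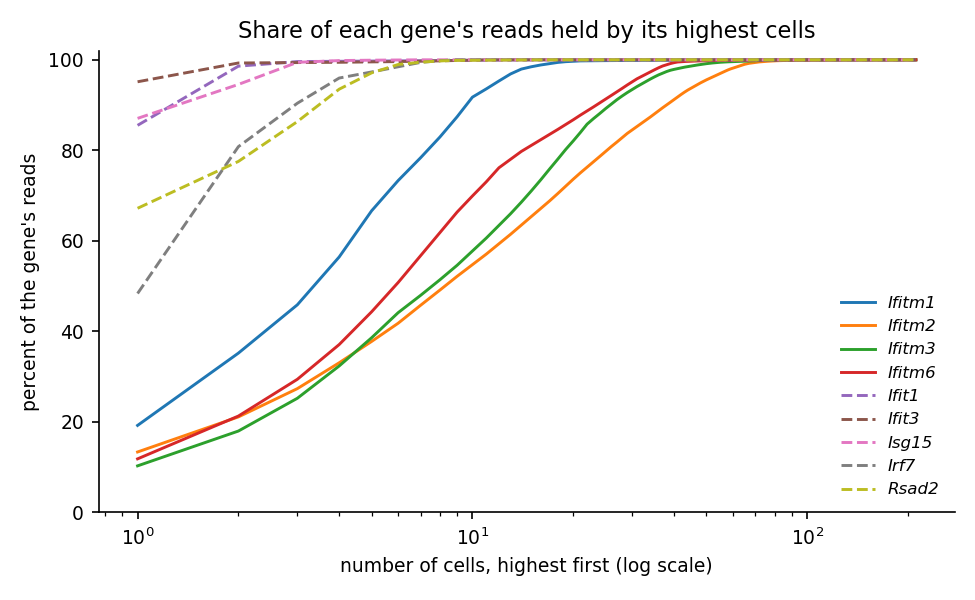
Cumulative percent of the reads of each gene against the number of cells, highest first, on a log axis, with IFITM genes as solid lines and induced genes as dashed lines. The dashed lines start between 48.4% and 95.1% at 1 cell, and the solid lines between 10.3% and 19.2%.

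A total of 15 cells (7.11%) had at least 10 reads of an induced gene, of which 11 had 1 of the 5 genes, 2 had 2 genes and 2 had 3 genes. None of the 211 cells had 4 or 5. They are called carriers here. The first cell with 3 genes, in capture 17c, had 668 reads of *Ifit1*, 53 of *Ifit3* and 278 of *Rsad2*. The second, in capture 31, had 52 reads of *Ifit1*, 1215 of *Ifit3* and 1080 of *Rsad2*. A pair of cells carried *Irf7* with *Rsad2*, at 169 and 544 reads in capture 31 and at 252 and 77 reads in capture 32. *Rsad2* thus accompanied every combination of 2 or more genes. The 3 cells with *Isg15*, at 2032 and 114 reads in capture 28 and 175 in capture 40, had none of the other 4 genes at 10 reads. The cells with the most *Ifit1* and the most *Rsad2* also carried 1 induced gene each.

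The carriers lay in 6 of 12 captures. Capture 31 held 6 of its 23 cells (26.1%), capture 28 held 3 of 37 (8.11%), capture 32 held 2 of 27 (7.41%), capture 19c held 2 of 7 (28.6%), capture 17c held 1 of 3 (33.3%) and capture 40 held 1 of 24 (4.17%). Captures 9c, 10c, 20c, 21c, 36 and 38 held 0. Of the 13 cells of capture 10c, 1 had at least 10000 reads, so its 0 says little. Capture 31 alone gave 72.7% of all reads of the 5 genes and capture 28 gave 15.3%. By age, 10 cells at P60 (9.80% of that age) and 5 cells at P120 (4.59%) were carriers. Without capture 31 the P60 share was 4 of 79 cells (5.06%), and without capture 28 the P120 share was 2 of 72 (2.78%). The P60 captures ranged from 0% to 33.3% and the P120 captures from 0% to 8.11%, so that the ages overlap. The smallest carrier had 262658 reads.

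Markers of other cell types were read in the same cells. Of the 15 carriers, 13 met the late neutrophil list and no other of the precursor and basophil lists, and 2 were mixed. Of the 13, the cell of capture 31 with *Irf7* and *Rsad2* also met the monocyte list through *Csf1r*, *Ly6c2* and *Adgre1*. A mixed cell, in capture 40 with 175 reads of *Isg15*, had 10 or more reads of 6 of 6 precursor genes and 3 of 7 late neutrophil genes. The other, in capture 28 with 114 reads of *Isg15*, had 3 precursor genes, 5 of 7 basophil genes, and *Cd3e*, *Cd3g* and *Cd3d*, the chains of the T cell receptor complex. No carrier met the SC list of 14 genes. Whether more than 1 cell was caught together in these libraries was not tested.

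The 38 other interferon-stimulated effector genes were counted in the same cells. The carriers had between 0 and 13 of them at 10 reads, with a median of 6, and the 164 cells with at least 50000 reads had a median of 2 with quartiles at 1 and 4. The 164 cells include the carriers and were not matched to them for depth or marker class. Some cells of captures 31 and 32 that were not carriers had 8 effectors. Whether the count is particular to carriers was not tested. The effectors named here were chosen after their values were seen. *Slfn1*, a member of the Schlafen family, was at 10 reads in 12 carriers, *Samhd1*, a nucleotide hydrolase that restricts viral replication, in 10 and *Slfn4* in 8. These 3 genes were also read in many other cells, at 51.7%, 67.8% and 62.6% of all cells. *Oasl2*, *Rtp4* and *Cmpk2* were at 10 reads in 5, 5 and 3 carriers. *Cmpk2*, the neighbour of *Rsad2* that is often induced with it, had 7928 reads in the cell with the most *Rsad2*, together with 7901 reads of *Rtp4* and 3546 of *Oasl2*. The cell with the most *Ifit3* had 3677 reads of *Ifit3b*, its near copy, with 5622 of *Oas2* and 3415 of *Rtp4*. In contrast, the cell with the most *Ifit1* had *Oasl2* as its 1 effector, and the cell with 2032 reads of *Isg15* had 2, *Slfn1* and *Ifi35*.

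**Figure D3:**
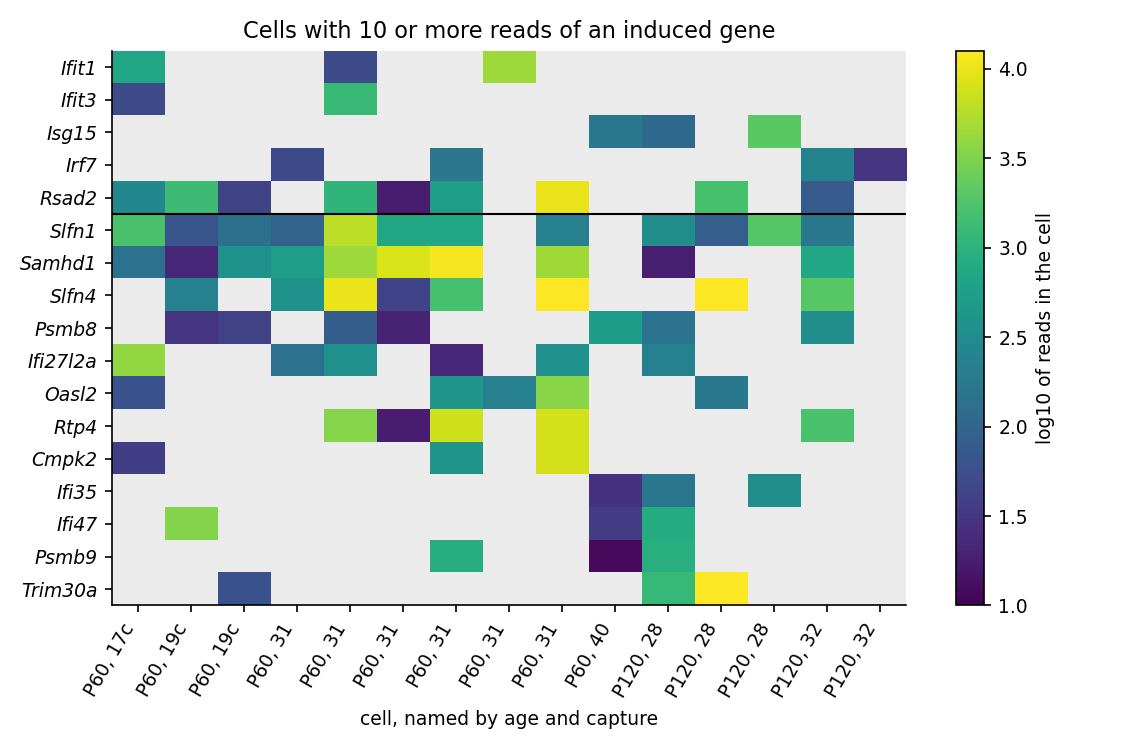
Reads, as log10 in colour, in the 15 cells with 10 or more reads of an induced gene, each column being a cell named by age and capture, with induced genes above the line and the effectors seen in at least 3 of these cells below it. Grey marks fewer than 10 reads, and 6 of the 15 columns are cells of capture 31.

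Interferon ligands were scarce, with 6 of 20 ligand genes having a read and 0 read in 10 cells or more. *Ifng*, the type II interferon of T and NK cells, had 5604 reads in all, which lay in 6 cells of capture 28. The mixed cell of capture 28 described above held 3214 of them. That cell also had the most effectors of the 164 cells with at least 50000 reads, 13 of 38, among them 1202 reads of *Trim30a* and 1167 of *Gbp2*. A second cell of the capture held 2384 reads, with 5 of 6 T and NK genes and 4 effectors at 10 reads, and the other 4 cells held 1 to 3 reads. *Ifna5*, with 156 reads, and *Ifnk*, with 168, were each in 1 cell of capture 9c, where 0 of 19 cells were carriers. The cells with *Ifna5*, with *Ifnk* and with 2384 reads of *Ifng* had 0 of the 5 induced genes at 10 reads.

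Low counts of the induced genes were compared with their neighbours on the same chip. *Rsad2* had 1 to 9 reads in 9 cells, and all 9 were in the captures that also held a cell with at least 10 reads (88 cells under 10 reads there, against 0 of 114 cells in other captures). For *Ifit1* they were 5 of 23 cells under 10 reads in captures 17c and 31, which held the cells with at least 10 reads, and 8 of 185 cells in the other captures. The counts were 4 of 24 against 5 of 185 cells for *Ifit3* and 3 of 46 against 2 of 161 cells for *Irf7*. For *Isg15* they were 1 of 58 against 3 of 150 cells, so that low counts were no more frequent beside a cell with at least 10 reads. Most low counts of *Ifit1*, *Ifit3* and *Isg15* thus lay in captures with no such cell, but those captures held most of the cells. For *Ifit1* and *Ifit3*, low counts were more frequent per cell beside a cell with at least 10 reads. Counts of 1 to 9 reads are given as detection, and carriers were defined at 10 reads. Captures also shared sequencing lanes, so a split by capture does not separate libraries that were sequenced together. The part of reads passed between libraries was not tested.

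The ages were compared on reads summed per capture, as CPM of the capture total. *Ifitm3*, which protects cells against influenza and other enveloped viruses, ranged over the 8 P60 captures from 0 to 768 CPM with a median of 152. At P120 it stood at 389, 339, 10.4 and 177 CPM in captures 28, 32, 36 and 38. All 4 P120 values lay inside the P60 range, and the means were 228 ± 259 (SD, n = 8) and 229.0 ± 172 (SD, n = 4). *Ifitm6*, whose expression is best known from bone marrow and myeloid cells, ranged from 0 to 731 CPM at P60 with a median of 163. At P120 it stood at 679, 62.03, 723 and 723 CPM in the same order. Capture 32 was low among the P120 captures, and the ranges of the ages overlapped. In capture 36, the highest cell held 6581 of 6602 reads of *Ifitm6*.

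*Ifitm1*, which acts mainly at the cell surface, ranged at P60 from 0 to 400.3 CPM with a median of 87.8. The high P60 levels rested on single cells. In captures 17c, 19c, 40 and 9c, the highest cell held 1330 of 1330, 1366 of 1367, 5894 of 6060 and 3273 of 3364 reads. The P120 captures stood at 59.2, 457, 1.42 and 23.6 CPM, so that capture 32 was above every other capture and the remaining 3 were inside the P60 range. In captures 28, 32, 36 and 38, the highest cell held 2046 of 2622, 4895 of 15246, 7 of 13 and 559 of 617 reads. *Ifitm2* ranged at P60 from 0 to 523 CPM with a median of 110.2, and stood at 57.9, 129, 316 and 68.3 CPM at P120. Its P120 values also lay inside the P60 range. On the sums of each capture, the quasi-likelihood test of edgeR called 10 of 8346 genes between the ages at an adjusted p of 0.05 (0.12%), 5 in each direction, and with library totals 1 higher and 4 lower at P120. Of the 5 members that passed the filter on low counts, 0 were called and 0 had an unadjusted p under 0.05. DESeq2 also called 0 members, but it gave no p-value for *Rsad2*, *Isg15* and *Irf7*. The log2 changes of P120 over P60 were 1.41 with a standard error (SE) of 1.38 for *Ifitm6*, 0.56 (SE 1.55) for *Ifitm2*, -0.32 (SE 1.71) for *Ifitm1* and -0.38 (SE 1.57) for *Ifitm3*, beside a median of 0.26 over all genes tested. The signs of *Ifitm1*, *Ifitm2* and *Ifitm3* turned under other scalings or captures. With SEs of this size, changes of several fold in either direction were not detectable.

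**Figure D4:**
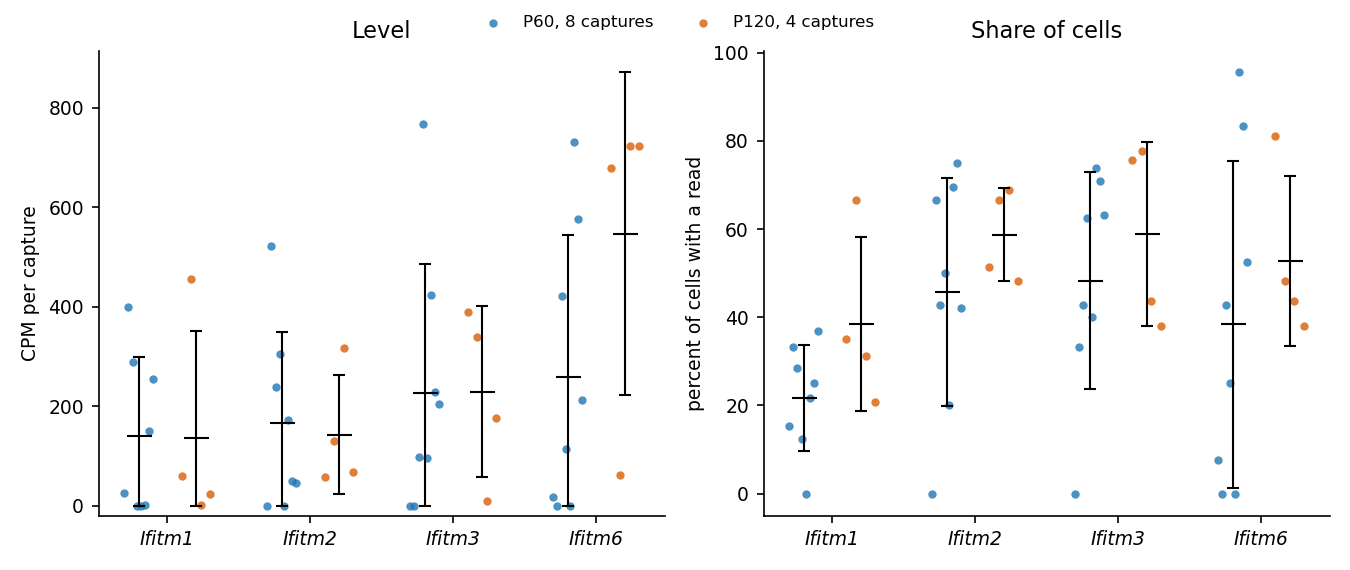
Level of the IFITM genes per capture in CPM (left) and percent of cells of each capture with a read (right), P60 in blue and P120 in orange, with the mean and SD in black and the lower bar ended at 0. Points of the ages overlap for the 4 genes in both panels.

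*Rsad2* passed the filter with a log2 change of -3.98 (SE 2.29, adjusted p = 0.99996 with edgeR). Its levels were 0, 0, 0, 0, 0, 83.7, 290.5 and 346 CPM in the P60 captures in rising order. Here and for the other genes, the value of capture 10c says little, as 3 reads there stand at 25.2 CPM. At P120 *Rsad2* stood at 35.4, 2.34, 0 and 0 CPM in captures 28, 32, 36 and 38, which is inside the P60 range. Summed over cells it stood at 125 CPM at P60, of which 22.5 CPM remained without capture 31, and at 14.5 CPM at P120, of which 1.14 CPM remained without capture 28. *Ifit1* was at 201 CPM in capture 17c and 130.1 CPM in capture 31, at 0.147 CPM in capture 20c and at 0 in the other 5 P60 captures. The P120 captures had 0.0452, 0.0300, 0 and 0.268 CPM of *Ifit1*, and 0 cells of that age had 10 reads, which allows a share of up to 2.75%. *Ifit3* was at 35.8 CPM in capture 31 and 15.95 CPM in capture 17c, at most 0.0756 CPM in the other P60 captures and at most 0.0452 CPM at P120. Both genes were thus high in the same 2 captures of P60.

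*Isg15* and *Irf7* were carried by other captures. *Isg15* stood at 48.5 CPM in capture 28, at 0.986 and 0.0300 CPM in captures 36 and 32 and at 0 in capture 38 of P120, while at P60 it was at 4.35 CPM in capture 40, 0.424 CPM in capture 19c and 0 in the other 6. *Irf7* stood at 8.45 CPM in capture 32, 0.0452 CPM in capture 28 and 0 in the other P120 captures, against 6.78 CPM in capture 31, 0.880 CPM in capture 20c and 0 in the other 6 P60 captures. The values of the 2 ages overlap at 0 for both genes. *Ifit1*, *Ifit3*, *Isg15* and *Irf7* did not pass the filter and have no fitted change in the main comparison.

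The share of cells with a read was compared per capture with an exact two-sided permutation test over all arrangements of the captures. For *Ifitm1* the captures averaged 21.7% ± 12.1 at P60 (SD, n = 8) and 38.4% ± 19.8 at P120 (SD, n = 4; exact permutation p = 0.0909). For *Ifitm2* they averaged 45.8% ± 25.8 and 58.8% ± 10.4 (exact permutation p = 0.378), for *Ifitm3* 48.3% ± 24.6 and 58.8% ± 20.9 (p = 0.475, exact) and for *Ifitm6* 38.4% ± 37.0 and 52.7% ± 19.4 (p = 0.505, exact). These differences lay within the spread between captures. *Rsad2* averaged 12.6% at P60 and 4.55% at P120 (exact permutation p = 0.491), and the other induced genes had exact p-values between 0.455 and 0.943. These shares count any cell with a read. At 10 reads, *Rsad2* averaged 9.91% and 1.60% (exact permutation p = 0.378) and *Ifit1* 5.25% and 0% (exact permutation p = 0.758). Of 10544 genes tested, 0 were called after Benjamini-Hochberg adjustment (0%) and 456 had an unadjusted p under 0.05. The smallest p that this design allows is 0.00202. Within the later runs, which hold both ages, the mean share at P120 minus that at P60 turned to -13.5, -13.6 and -36.8 percentage points for *Ifitm2*, *Ifitm3* and *Ifitm6*, and the smallest p allowed there is 0.0667. *Ifitm6* reached it (exact permutation p = 0.0667, adjusted p = 0.966), with 95.7% and 83.3% of cells in the P60 captures above the 37.9% to 81.1% of the 4 P120 captures, which is opposite in direction to the difference over all captures.

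The IFITM genes were then compared between cells that met different marker lists, none of which contains a member. Neutrophils mature from precursors that make the granule proteins of the *Elane* and *Mpo* group to cells that express *Cxcr2* and *Csf3r*. Only cells with at least 10000 reads were used. *Ifitm3* stood at 467 CPM over the 112 late neutrophil-like cells, at 19.1 CPM over the 15 cells with the precursor list alone and at 14.1 CPM over all 42 cells with the precursor list, which are these 15 and 27 cells that also met another list. *Ifitm6* stood at 733 and 54.1 CPM in the first 2 groups, with 9 of the 42 cells at 10 reads. *Ifitm2* stood at 162, 58.1 and 62.4 CPM. *Ifitm1* stood at 117 and 0.0373 CPM in the first 2 groups but at 225 CPM over the 42 cells. The marker rule has a limit, with 11 cells at exactly 3 late neutrophil genes and 28 at 2, and 15 cells at exactly 3 precursor genes and 15 at 2, so the classes are ranges of marker expression.

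Captures with enough cells of both kinds gave the test. Cells with the precursor list alone were compared first with late neutrophil-like cells in captures 28 and 40, the 2 captures with at least 3 cells of each, with the capture as a block. Of 6916 genes, 76 were called (1.1%), 8 higher (0.116%) and 68 lower (0.983%) in the precursor-like cells, or 28 higher and 32 lower with library totals. Of the 4 members tested, 0 were called and 3 had an unadjusted p under 0.05. The log2 differences were -6.55 (SE 2.06, adjusted p = 0.102 with edgeR) for *Ifitm6*, -5.61 (SE 2.35, adjusted p = 0.453) for *Ifitm3* and -1.75 (SE 3.21, adjusted p = 0.994) for *Ifitm2*. *Ifitm1* had 0 reads in the precursor-like cells of both captures, and its adjusted p was 0.154. DESeq2 called 986 genes and 2 members, *Ifitm1* and *Ifitm6*, both lower in the precursor-like cells. It was run on all genes with a read and not on the 6916, so the 986 is not a share of these. With only 2 captures, this comparison is limited by their number.

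All cells with the precursor list, whether or not they met another list, were therefore also compared, a choice made after the data were seen, which gave 5 captures. The 8 precursor-list cells of capture 32 all met the basophil list too. That capture thus sets basophil-list cells beside late neutrophil-like cells. Some precursor-list cells of other captures also met the basophil or the late neutrophil list. *Ifitm3* was lower in the precursor-list cells of each of the 5 captures. It stood at 840.5 CPM in the late neutrophil-like cells and 12.4 CPM in the precursor-list cells of capture 28, at 881 and 6.78 CPM in capture 32, and at 225 and 0.169 CPM in capture 38. At P60 it stood at 246 and 28.9 CPM in capture 40 and at 449 and 1.26 CPM in capture 9c. Within these 5 captures the lowest late neutrophil-like value was above the highest precursor-list value. The 13 late neutrophil-like cells of capture 36, which is not among the 5, stood at 10.2 CPM of *Ifitm3*. That is below the precursor-list values of captures 28 and 40. *Ifitm6* stood at 1289 against 231 CPM, 108.7 against 0.405 CPM and 641 against 0.508 CPM in captures 28, 32 and 38, and at 883 against 164 CPM and 289 against 0.211 CPM in captures 40 and 9c. It was also lower in 5 of 5 captures, although the 2 ranges overlapped across captures. Some of these *Ifitm6* values rested on few cells. The highest late neutrophil-like cell held 1157 of 1169 reads in capture 32 and 8550 of 10856 in capture 38. The highest precursor-list cell of capture 28 held 3967 of 4103.

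Both genes passed the test. The log2 difference was -7.97 (SE 1.48, adjusted p = 0.00216 with edgeR) for *Ifitm3* and -7.94 (SE 1.64, adjusted p = 0.00600) for *Ifitm6*, while 340 of 6772 genes were called (5.02%), 186 of them higher (2.75%) and 154 lower (2.27%). The median over all genes tested was 1.34, so both genes lie further below the other genes than below 0. With library totals, 427 genes were higher and 90 lower around a median of 2.38, and both genes still passed, at -6.96 and -6.97. *Ifitm2* (-1.24, SE 1.77, adjusted p = 0.721) and *Ifitm1* (1.80, SE 2.22, adjusted p = 0.674) did not pass. With each capture left out in turn, *Ifitm3* stayed between -8.73 and -7.30 and *Ifitm6* between -9.18 and -6.60, and both passed each time. Depth differed between the classes, with a median of 772653 reads in late neutrophil-like cells and 1808718 in cells with the precursor list alone. In cells thinned to 50000 reads, *Ifitm3* was read in 49.5% of late neutrophil-like and 19.5% of precursor-list cells, whereas *Ifitm6* was read in 34.3% and 29.3%. For *Ifitm6* the difference thus lay more in the level than in the share of cells.

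**Figure D5:**
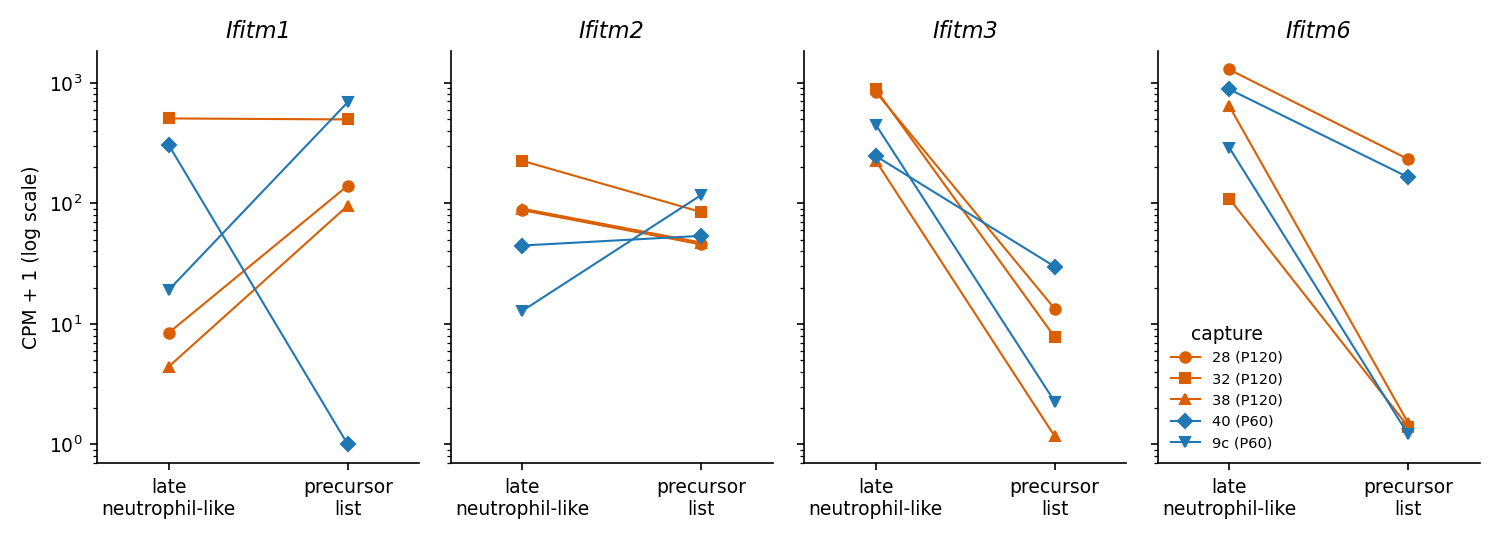
CPM plus 1 of each IFITM gene, on a log axis, in the late neutrophil-like cells (left) and the cells with the precursor list (right) of the 5 captures that held both, 1 line per capture, P120 in orange and P60 in blue. The lines of *Ifitm3* and *Ifitm6* fall in 5 of 5 captures, whereas those of *Ifitm1* and *Ifitm2* run in both directions.

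*Ifitm1* followed another list. Among the 42 cells with the precursor list, it stood at 139, 496, 94.7, 0 and 690.1 CPM in captures 28, 32, 38, 40 and 9c. Its reads lay in cells that also met the basophil list (*Mcpt8*, *Prss34*, *Cpa3*, *Fcer1a*, *Ms4a2*, *Cd200r3* and *Gata2*), a split chosen after the values were seen. Of the 17 cells with the basophil list and at least 10000 reads, 15 had a read and 10 had at least 10 reads, at 526 CPM in sum. Not all of these 17 cells met the precursor list. Of the 27 cells with the precursor list and without the basophil list, 2 had a read and 0 had 10 reads, at 0.0913 CPM. Within capture 28 the values were 4 of 5 cells and 521 CPM against 1 of 10 cells and 0.231 CPM. Capture 32 gave 10 of the 17 cells, and 6 of the 7 cells outside it had a read, at 788 CPM. In contrast, *Ifitm6* stood at 29.8 CPM with the basophil list and 171 CPM without it, and *Ifitm3* at 61.8 and 18.99 CPM, or 5.76 CPM in the basophil-list cells outside capture 32. A cell of capture 32 with the basophil list but not the precursor list held 1603 reads of *Ifitm3* and 890 of *Ifitm6*. *Ifitm1* was not confined to those cells, as the late neutrophil-like cells of captures 32 and 40 had 505 and 303 CPM of it. The highest cell held most of these reads, 4895 of 5436 in capture 32 and 5894 of 5902 in capture 40. Of the 112 late neutrophil-like cells, 10 had at least 10 reads of *Ifitm1*. No test was made, as 15 of the 17 cells came from 2 captures, both at P120, where the basophil list is the more frequent.

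The induced genes were not detected at 10 reads in the 15 cells with the precursor list alone, which allows a share of up to 20%, so a difference in share from the late neutrophil-like cells was not detectable at this number. The 14 cells with the SC list had *Ifitm3* at 10 reads in 11 cells, *Ifitm2* in 8, *Ifitm6* in 7 and *Ifitm1* in 2, and had the 5 induced genes in 0. Of these cells, 7 also met the late neutrophil list, and 4 met none of the late neutrophil, precursor and basophil lists. In those 4, *Ifitm3* was at 10 reads in 3 cells, *Ifitm6* in 2 and *Ifitm1* and *Ifitm2* in 0.

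The 4 IFITM genes were not read together as a block. At 10 reads, 86 cells had 0 of the 4, 58 had 1, 42 had 2, 21 had 3 and 4 cells had all of them. Over the 164 cells with at least 50000 reads, the Spearman correlation of log2(CPM + 1) was highest between *Ifitm3* and *Ifitm6*, at 0.44, and 40 of the 87 cells with either at 10 reads had both. In thinned cells, *Ifitm6* was read in 57.1% of the cells with *Ifitm3* and in 19.1% of those without. *Ifitm1* and *Ifitm6* had a correlation of -0.17 and *Ifitm1* and *Ifitm2* of 0.19. Among the induced genes the values were 0.31 for *Ifit3* and *Rsad2*, 0.30 for *Ifit1* and *Ifit3* and 0.25 for *Ifit1* and *Rsad2*. These are descriptions over cells that share captures and differ in depth.

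The genes most like each member were ranked by the same correlation over 7832 genes and 164 cells. *Ifitm6* was nearest to *Ltf* (0.65), *Ngp* (0.63) and *Camp* (0.63), which code for proteins of the secondary granules of neutrophils. *Ifitm3* was nearest to *Lcn2* (0.51), a further secondary granule gene, *Anxa1* (0.50) and *Plbd1* (0.49). The nearest genes of *Ifitm1* were *4930519L02Rik* (0.43), *Mns1* (0.41) and *Adgrg1* (0.41), and those of *Ifitm2* were *Ttc14* (0.34), *Rexo2* (0.34) and *Foxn3* (0.32). *Rsad2* was nearest to *Oasl2* (0.48), *Oas2* (0.43) and *Nlgn1* (0.40), the first 2 of which belong to the interferon-stimulated oligoadenylate synthetase family. *Ifit1* was also nearest to *Oasl2* (0.45), followed by *Tpm1* (0.40) and *Susd3* (0.37). For the rarer genes few cells set the order, as for *Ifit3* with *Smox* (0.37), *Crtc3* (0.31) and *Tmem91* (0.31), for *Isg15* with *Bet1l* (0.40), *Cntrob* (0.32) and *Polrmt* (0.29), and for *Irf7* with *Gm24727* (0.47), *Gm15448* (0.42) and *Gm15922* (0.34).

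The rest of the pathway was read from lists. Of the receptors, 6 of 6 had a read in at least 10 cells, led by the interferon-gamma receptor chains *Ifngr1* (49.3% of cells) and *Ifngr2* (38.4%). Of the 11 signalling genes, the kinase *Jak1* was read in 72.5% and *Irf2* in 54.5%. Among the sensors of foreign nucleic acids and their adaptors, *Myd88* was read in 28.9% and *Ddx58*, which codes for RIG-I, in 16.6%. The restraining genes were led by the phosphatase gene *Ptpn6* (72.04%) and *Pias1* (36.02%). Of the other IFITM genes, *Ifitm10* was read in 10 cells (4.74%), *Ifitm7* in 2 and *Ifitm5* in 0. Between the ages, edgeR called 0 of the 6 receptors, 8 signalling genes, 5 sensors, 21 effectors and 4 restraining genes that passed the filter.

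Between the marker classes, effectors were the pathway list with calls. In the 5-capture comparison, 1 of 12 effectors tested was higher and 2 were lower in the precursor-list cells. *Samhd1* was lower, at 881 CPM over late neutrophil-like and 18.3 CPM over precursor-list cells (log2 difference -7.13, SE 1.14, adjusted p = 0.000378 with edgeR). *Slfn4*, a Schlafen gene of myeloid cells, was lower at 1165 and 47.3 CPM (-6.56, SE 1.11, adjusted p = 0.000805). *Ifi47*, an interferon-gamma-induced GTPase, was higher, with 16 of 42 precursor-list cells (38.1%) and 4 of 112 late neutrophil-like cells (3.57%) having a read (10.99, SE 2.93, adjusted p = 0.0337). Its pooled levels were closer, at 56.6 CPM over precursor-list and 27.3 CPM over late neutrophil-like cells, and 1 late neutrophil-like cell of capture 19c, which is not among the 5 captures, held 3340 reads. *Slfn1*, at 487 and 29.9 CPM, did not pass (-7.20, adjusted p = 0.0714). In the 2-capture comparison, 3 of 11 effectors were lower, *Samhd1* (-11.01, adjusted p = 0.00839), *Slfn1* (-11.62, adjusted p = 0.0111) and *Slfn4* (-6.82, adjusted p = 0.0317). No gene of the receptor, signalling, sensor and restraining lists was called by edgeR in either comparison.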

How the data were processed

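Single cochlear cells were sequenced in full length with paired reads of 90 bases. Reads were separated by cell and aligned with STAR to GRCm38 (mm10) and its vM11 annotation by the authors, who deposited raw read counts per gene and cell, without normalization or molecular identifiers, with endothelial cells and outliers removed. Values named fold, CPM or RPKM were computed here from the counts. Spike-in sequences (92 entries, 12.3% of reads) were left out. Symbols came from GENCODE vM21 (same build, 48349 genes matched), and no doublet caller was run.

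Groups came from the labels, and captures and runs from the deposited cell table, whose score of GFP intensity, scaled by the authors in a way the sources used here do not give, was not used. The sums of counts over the cells of a capture, or of a class within it, were tested in R 4.3.3 with edgeR 4.0.16 (filterByExpr, TMM and the quasi-likelihood F test, called at a Benjamini-Hochberg adjusted p of 0.05) and with DESeq2 1.42.0 as the other tool. SEs are the log2 change over the root of F. Shares were tested with exact permutation tests in scipy 1.17.1, over genes read in at least 10 cells. Tables used Python 3.11.15, pandas 2.3.3, numpy 2.4.6 and figures matplotlib 3.10.9. The tests were tried on simulated data.

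A class needed at least 3 list genes at 10 reads. The text names the 9 members, per pathway list up to 5 called genes and the 2 read in the most cells, and per member the 3 nearest genes. The members and lists were chosen with earlier results of these data known.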

Additional observations from a re-analysis of the deposited data

Results flagged for a closer look

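Dixon's criterion was applied to 36 groups of captures (each gene, as CPM and as percent of cells, at each age). Of these, 10 held a capture far from the others. Chance gives about 1 in 20 only where values are normally distributed. Most of the 10 concern genes whose reads lie in 1 or a few cells, so that rate does not apply to them. The 10 groups therefore cannot be read as an excess over chance.

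Among the 4 P120 captures, *Ifitm1* in capture 32 was at 457 CPM, with the next capture at 59.2 CPM. In the same capture, *Ifitm6* was at 62.03 CPM, below the next at 679 CPM. Capture 32 held 10 of the 17 cells with the basophil list, in which *Ifitm1* was high and *Ifitm6* low. Its 12 late neutrophil-like cells also had 505 CPM of *Ifitm1*, against 1.43 to 7.45 CPM in those of the other P120 captures, and 108.7 CPM of *Ifitm6*, against 641 to 1289 CPM. Of the 12 cells, the highest held 4895 of 5436 reads of *Ifitm1*, and the highest for *Ifitm6* held 1157 of 1169. These levels therefore do not describe the 12 cells as a group. In capture 36, the highest late neutrophil-like cell held 6581 of 6601 reads of *Ifitm6*. The part of either group of cells in the level of the capture was not tested.

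The induced genes gave 8 such captures. At P120, *Isg15* in capture 28 was at 48.5 CPM (next 0.986 CPM), *Rsad2* in capture 28 at 35.4 CPM (next 2.34 CPM), *Irf7* in capture 32 at 8.45 CPM (next 0.0452 CPM) and *Ifit1* in capture 38 at 0.268 CPM (next 0.0452 CPM). The *Ifit1* value rests on 7 reads in 4 cells. At P60, *Ifit3* in capture 31 was at 35.8 CPM (next 15.95 CPM), *Irf7* in capture 31 at 6.78 CPM (next 0.880 CPM) and *Isg15* in capture 40 at 4.35 CPM (next 0.424 CPM). The share of cells with *Isg15* in capture 19c was 14.3% (next 4.17%), which is 1 cell of 7 with 2 reads.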

How the results depend on the processing

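Over the 12 captures, the number of genes called between the ages was 10 with edgeR and 76 with DESeq2, 5 with library totals, 22 without the filter on low counts, 6 with cells of at least 10000 reads, 2 in the later runs, 0 with the run as a term and 0 after thinning. With each capture left out in turn it was between 1 (without 10c) and 16 (without 21c), and it also moved by over 1.5 times without 36 (2 genes), 20c or 38 (5 each) and 32 or 40 (6 each). The number of members called was 0 under each of these settings. The log2 change of *Ifitm1* turned to 0.074 with DESeq2, 0.65 with the run as a term and 0.67 in the later runs, and lay between -2.45 and 0.17 with a capture left out. *Ifitm2* turned to -0.22 and *Ifitm3* to 0.015 with library totals, and with a capture left out they lay between -1.13 and 0.92 and between -0.71 and 0.32. *Rsad2* lay between -7.41 and -3.26. The difference in share of cells turned at 10 reads to -1.41 percentage points for *Ifitm2*, -1.85 for *Ifitm3*, -1.49 for *Ifitm6* and 0.765 for *Irf7*. After thinning it turned to -2.17 for *Ifitm3* and 0.608 for *Irf7*, and in the later runs, an alternative added after seeing the data, to -13.5, -13.6 and -36.8 for *Ifitm2*, *Ifitm3* and *Ifitm6*. *Irf7* lay between -2.84 and 1.67 with a capture left out. Between precursor-like and late neutrophil-like cells, 76 genes were called with edgeR, 986 with DESeq2, 39 after thinning, 233 with at least 2 cells per class and 340 with marks of another list included, and the last 2 settings were added after seeing the data. The members called were 0 with edgeR in 2 captures and 2 with DESeq2, 2 with at least 2 cells and 2 with other lists included, where *Ifitm1* turned to 1.80. In the 5-capture comparison, 5.02% of genes were called, 7.63% with library totals and between 1.60% and 2.87% with 1 of captures 28, 32, 38, 40 or 9c left out, each of which lowered it by over 1.5 times, with 2 members called in each. Cells with 3 of the 5 induced genes numbered 2 at 10 reads, 1 at 50 CPM, 1 after thinning and 4 if 2 of 5 genes were required. The median share of CPM in the 5 highest cells, 87.7%, lay between 87.7% and 99.7% with a capture left out, the highest without capture 31. Of 286 values of single members at other settings, 255 kept direction and call, 25 turned and 6 passed the threshold anew. The cause of these changes was not tested. Requiring 2 markers or leaving out a capture in the 2-capture comparison left 1 capture and no residual degrees of freedom, so neither was run. No paired analysis was possible because the labels number no replicates that the ages share.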
